A study of Homo sapiens with 18 samples.

Results

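The 8 genes that encode linker histone H1 were followed across the RNA sequencing libraries. They are HIST1H1A, HIST1H1B, HIST1H1C, HIST1H1D, HIST1H1E, HIST1H1T, H1F0 and H1FX, taken by name as 8 of the 23571 named genes of the deposited table. The cells were SW48, an established line from a human colon adenocarcinoma, and there were 18 libraries in 6 groups of 3. One pair of groups received control siRNA or siCHD4 alone, with transfections on days 1, 3 and 6 and RNA extraction at day 8. The second pair received siDNMT1 on days 1, 3 and 5, then control siRNA or siCHD4 on days 7 and 8, and RNA was extracted at day 11. The last pair received 50 nM decitabine on days 1, 2 and 3 and control siRNA or siCHD4 on days 1 and 2, and RNA was extracted at day 5. No group was left without siRNA, so control siRNA is the baseline throughout. Separate cultures are not stated for the replicates, so the p-values measure a spread between libraries that may be technical. Comparisons of siCHD4 with control siRNA within a pair share a schedule. Comparisons of the siDNMT1 or decitabine groups with control siRNA alone do not, so there treatment and schedule cannot be told apart. Tests of whether the siCHD4 effect differs between pairs also span unlike schedules, so background and schedule cannot be told apart there either.

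Linker histones bind the DNA that enters and leaves the nucleosome and help to fold chromatin. The HIST1 genes are mostly expressed while DNA is copied, and their mRNAs end in a stem-loop in place of a poly(A) tail, whereas H1F0 and H1FX are expressed outside DNA replication. H1F0 is known for accumulating in differentiated and resting cells, and HIST1H1T is the H1 gene of spermatocytes in the testis. CHD4 is the ATPase of the NuRD chromatin remodelling complex, DNMT1 copies DNA methylation to the new strand, and decitabine is a cytidine analogue that traps DNA methyltransferases.

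All 8 genes have a single exon. On GRCh37 HIST1H1A lies at chr6:26017260-26018015 (minus strand), HIST1H1C at chr6:26055968-26056698 (minus), HIST1H1T at chr6:26107640-26108363 (minus), HIST1H1E at chr6:26156557-26157343 (plus), HIST1H1D at chr6:26234440-26235215 (minus) and HIST1H1B at chr6:27834570-27835366 (minus). H1F0 lies at chr22:38201236-38203439 (plus) and H1FX at chr3:129033614-129035129 (minus). HIST1H1T overlaps the annotated span of HIST1H2BC on the same strand, and whether an exon or an intron lies there was not read. H1FX overlaps the antisense gene H1FX-AS1, which was listed at 0.456 to 2.05 FPKM. Whether reads were counted by strand is not stated, so reads of H1FX and H1FX-AS1 may not be told apart. No 50-base stretch is shared between the transcripts of the 8 genes. The longest identical run is 37 bases, between HIST1H1B and HIST1H1E.

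The 200 bases before the gene start are printed below for HIST1H1A, HIST1H1B and HIST1H1D, which were near 0 with control siRNA, for HIST1H1T, which differed most between siCHD4 and control siRNA, and for the abundant HIST1H1C. They come from RefSeq promoter windows on GRCh38.p14, which matched 7 of the 8 genes (H1F0 did not match), and span chr6:26017788-26017987, chr6:27867589-27867788, chr6:26234988-26235187, chr6:26108136-26108335 and chr6:26056471-26056670, all on the minus strand. Each is written 5′ to 3′ on the gene's strand, and capitals mark the H1 box (AAACACA), the CCAAT box (CCAAT) and the TATA box (TATAAA), or their reverse complements.
HIST1H1A: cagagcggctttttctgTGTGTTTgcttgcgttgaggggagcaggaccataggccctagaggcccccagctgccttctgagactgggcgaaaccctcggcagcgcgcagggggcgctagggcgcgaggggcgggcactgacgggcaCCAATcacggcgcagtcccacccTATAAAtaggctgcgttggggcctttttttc
HIST1H1B: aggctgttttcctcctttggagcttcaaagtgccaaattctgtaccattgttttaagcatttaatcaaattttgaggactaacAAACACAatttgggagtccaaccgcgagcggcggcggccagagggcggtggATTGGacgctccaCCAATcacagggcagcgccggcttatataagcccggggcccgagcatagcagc
HIST1H1D: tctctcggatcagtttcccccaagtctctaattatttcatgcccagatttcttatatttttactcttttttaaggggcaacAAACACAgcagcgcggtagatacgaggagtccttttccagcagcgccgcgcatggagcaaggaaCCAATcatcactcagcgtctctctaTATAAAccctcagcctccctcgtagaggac
HIST1H1T: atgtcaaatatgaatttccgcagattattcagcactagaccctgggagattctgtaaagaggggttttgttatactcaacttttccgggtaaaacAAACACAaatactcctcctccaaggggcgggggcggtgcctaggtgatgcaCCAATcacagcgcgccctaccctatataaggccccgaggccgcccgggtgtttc
HIST1H1C: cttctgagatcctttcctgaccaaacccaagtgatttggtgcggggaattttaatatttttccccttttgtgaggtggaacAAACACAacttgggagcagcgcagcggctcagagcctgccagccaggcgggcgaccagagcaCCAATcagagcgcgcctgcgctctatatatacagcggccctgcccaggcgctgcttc

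The silent, the testis-type and the abundant HIST1 genes shared a proximal CCAAT box, while exact matches of the other motifs varied between them. CCAAT on the gene's strand began 53 to 57 bases before the start in all 6 HIST1 genes. AAACACA on the gene's strand began 105 to 119 bases before the start in HIST1H1B, HIST1H1C, HIST1H1D, HIST1H1E and HIST1H1T. HIST1H1A held the H1 box as TGTGTTT, 183 bases before its start. TATAAA on the gene's strand began 29 to 31 bases before the start in HIST1H1A, HIST1H1D and HIST1H1E. HIST1H1B, HIST1H1C and HIST1H1T held no exact TATAAA. Their printed sequences hold tatata near the gene start, a spelling that was not searched, so a TATA-like element is not excluded. GC boxes were found in HIST1H1A, HIST1H1B, HIST1H1E and HIST1H1T but not in HIST1H1C or HIST1H1D. Over windows of 300 bases (250 before and 50 after the start, both strands), the H1 box was found in 5.64% of 35116 RefSeq promoters, the CCAAT box in 34.6%, the TATA box in 11.5% and the GC box (GGGCGG) in 45%. Both H1 and CCAAT boxes were found in 2.02%. The 3 genes near 0 with control siRNA held 17 (HIST1H1A), 13 (HIST1H1B) and 11 (HIST1H1D) CpG dinucleotides in this window, HIST1H1T held 12, HIST1H1C 15, HIST1H1E 25 and H1FX 32, and the median over all promoters was 14. A match of letters is a description of these windows and not a measured binding site.

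**Figure D1:**
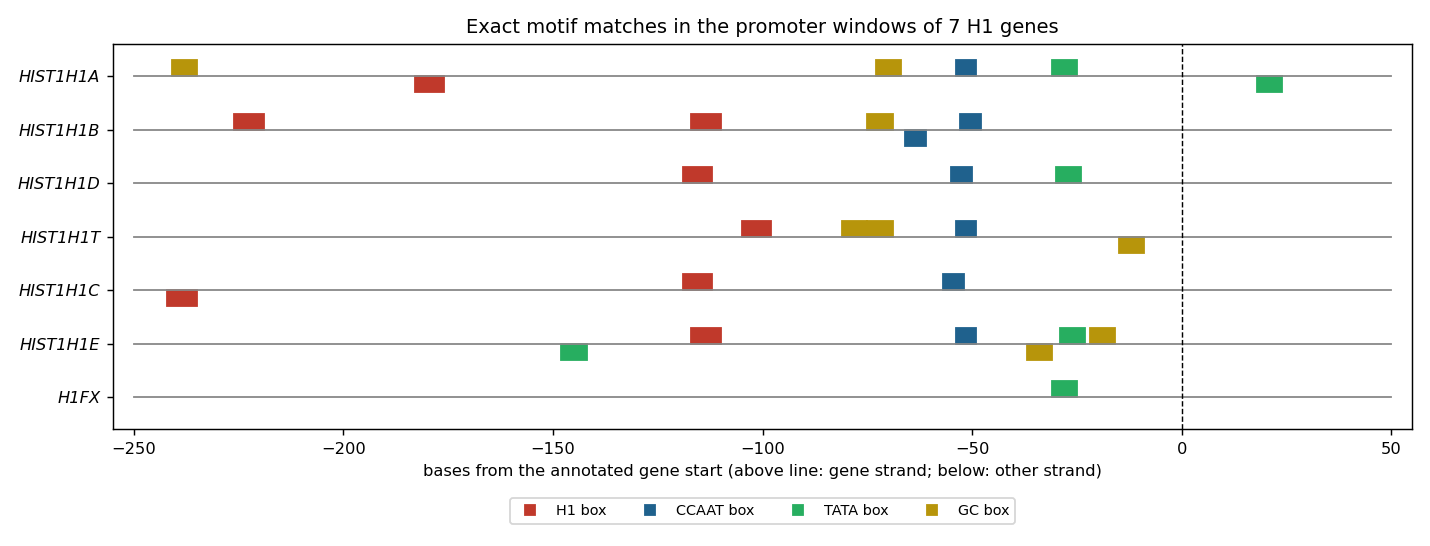
Motif matches by distance from the annotated gene start (x axis, bases) in the promoter windows of 7 H1 genes, with boxes above each line on the gene's strand and below it on the other strand. All 6 HIST1 genes have a CCAAT box 53 to 57 bases before the start, and H1FX has a TATA box alone.

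The targeted genes were measured first. CHD4 was at 59.1 to 68.2 FPKM (fragments scaled to transcript length and library size, as the authors deposited them) in the control siRNA libraries and at 39.0, 31.8 and 23.2 in the siCHD4 libraries. After siDNMT1 it was at 63.7 to 73.9 without and 27.1 to 29.1 with siCHD4, and with decitabine at 66.8 to 81.5 without and 52.6 to 56.5 with siCHD4, where the difference missed the threshold (limma adjusted p = 0.0752). With siCHD4 the mean of CHD4 was 0.499 times its control alone, 0.416 times after siDNMT1 and 0.721 times with decitabine. The siCHD4 effect on CHD4 differed between the siDNMT1 and decitabine backgrounds by -0.77 (SE 0.19, limma adjusted p = 0.02885). The part of this in the H1 differences was not tested. DNMT1 was at 43.7 to 45.4 with control siRNA and at 11.2 to 13.5 after siDNMT1. The summed FPKM of a library ranged from 765078 to 1727230. The table holds FPKM and no counts, but the step between low values showed 1 fragment to be worth 4.11 times as much in control siRNA plus decitabine replicate 0, which was therefore the shallowest library, as in control siRNA replicate 0, against 0.599 to 1.13 times in the other libraries. The 8 colon epithelium markers summed to 1053 to 2457 FPKM. Of these, 7 were tested, and they did not move together. With siCHD4, 2 (VIL1 and CDX2) were called higher and 2 (KRT8 and KRT18) lower alone, 4 (CDH1, KRT19, CDX2 and VIL1) higher and the same 2 lower after siDNMT1, and those 2 lower and 0 higher with decitabine (1 higher at an unadjusted limma p below 0.05). Of all tested genes, 9.58% were called higher and 9.71% lower alone, 24.8% and 24.6% after siDNMT1, and 3.26% and 1.31% with decitabine. KRT18 stood at 884 ± 34.5 with control siRNA and 422 ± 60.5 with siCHD4 (adjusted p = 8.54e-05), and the mean of CDX2 at 37.9 and 62.1 (adjusted p = 0.00272). Markers of fibroblasts, blood, endothelium and male germ cells summed to at most 14.8 FPKM in any library, with the highest sums after siCHD4 plus siDNMT1 for the first 3. Their part in the H1 results was not tested. In bulk RNA, fewer cells of a type and less RNA per cell cannot be told apart.

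With control siRNA alone, 2 genes made up nearly all H1 RNA. HIST1H1C was at 2713 ± 501 FPKM (SD, n = 3) and HIST1H1E at 2279 ± 359, ranks 51 and 73 of the 23571 genes. H1FX was at 53.8 ± 6.95, H1F0 at 52.6 ± 9.12 and HIST1H1T at 3.39 ± 1.30. HIST1H1A and HIST1H1B averaged 0.327 and 0.251, and HIST1H1D was listed at 0 in all 3 libraries. Of the H1 genes outside the 8, H1FOO was listed at 0 in every library, HILS1 was above 0 in 1 library (0.129) and H1FNT reached at most 0.0985. All 8 genes passed the filter of at least 1 FPKM in at least 3 libraries, but HIST1H1A, HIST1H1B and HIST1H1D passed it only through the groups given siDNMT1 or decitabine.

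**Figure D2:**
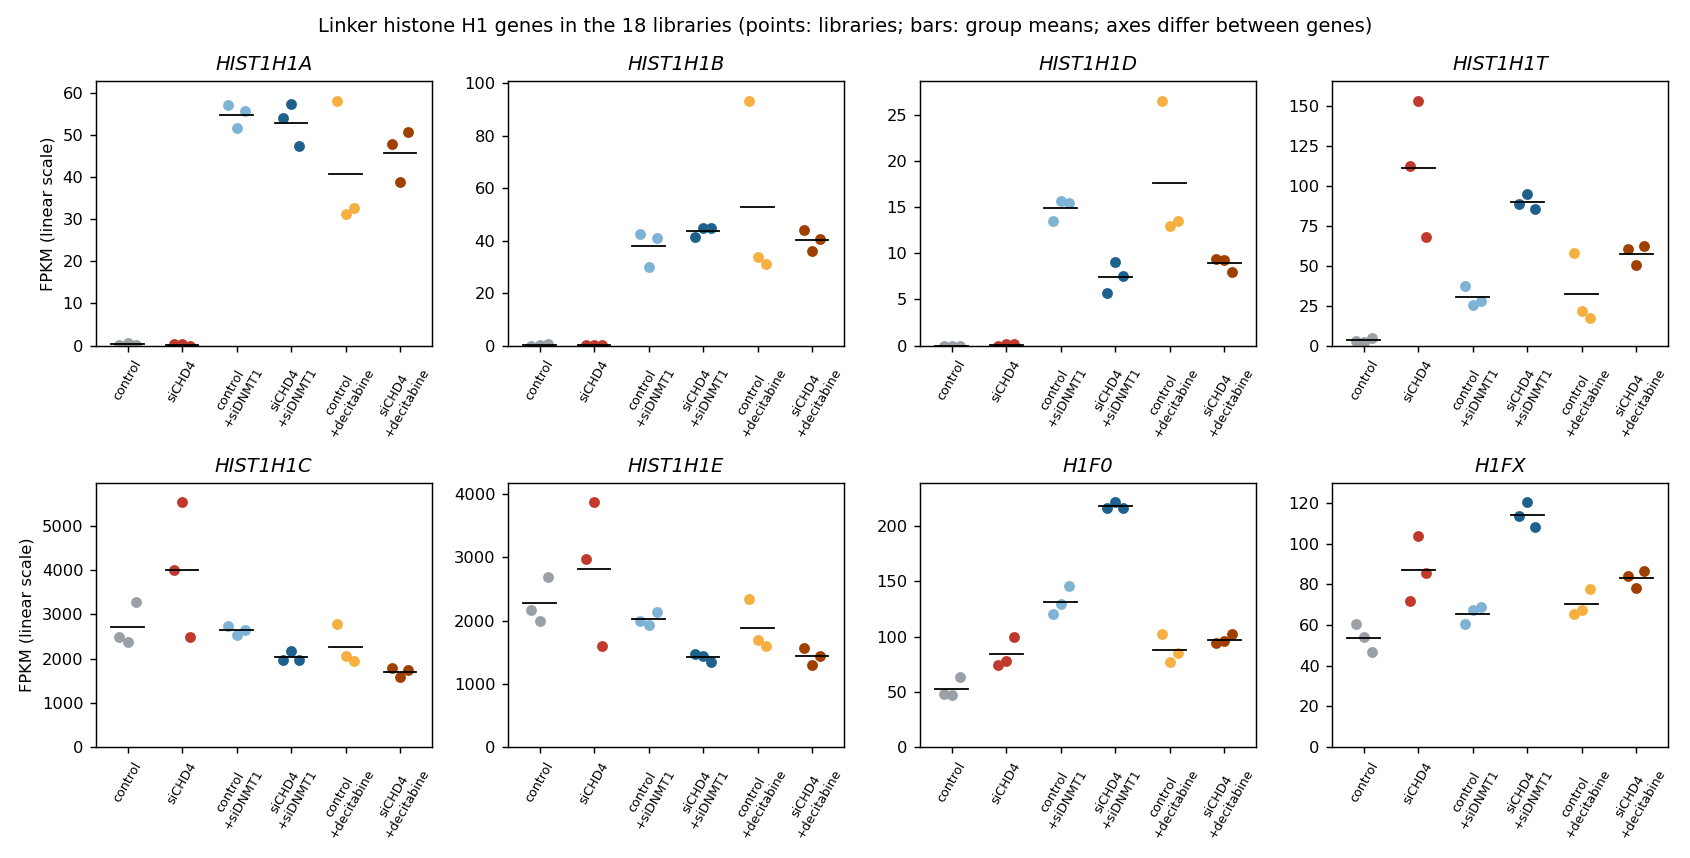
FPKM (y axis, linear, scaled for each gene) of the 8 H1 genes in the 6 groups, with a point for each library and a bar at the mean of 3. HIST1H1A, HIST1H1B and HIST1H1D are near 0 in the 2 groups without siDNMT1 or decitabine, HIST1H1T is above its control in all other groups, and H1F0 and H1FX are highest after siCHD4 plus siDNMT1.

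In the counts that follow, a gene is called when its limma adjusted p is below 0.05, and differences are of log2(FPKM + 1), a scale that understates the change of low genes. With siCHD4 alone, 3 of the 8 genes were called higher (HIST1H1T, H1F0 and H1FX) and none lower (0 also at an unadjusted limma p below 0.05), where 9.58% of all 12809 tested genes were called higher and 9.71% lower. Their median difference was 0.36, against 0.00 over all genes. On the siDNMT1 background the same 3 were called higher and HIST1H1D lower, against 24.8% and 24.6% of all genes, with a median of 0.08 against -0.01. On the decitabine background HIST1H1D was called lower and no H1 gene higher (1, HIST1H1T, at an unadjusted p below 0.05), against 1.31% and 3.26% of all genes, with medians of -0.02 and 0.01. Compared with control siRNA alone, 5 of the 8 were called higher after siDNMT1 (6.94% of all genes), 6 with decitabine (9.6%), 6 after siCHD4 plus siDNMT1 (29.3%) and 6 with siCHD4 plus decitabine (18%). In the combinations 1 (29.8%) and 2 (16.9%) H1 genes were called lower, and with siDNMT1 or decitabine alone none was (4.4% and 8.63%, and 0 H1 genes also at an unadjusted p below 0.05). The members' medians in these 4 comparisons were 2.09, 1.74, 2.55 and 2.1. These comparisons share the same 3 control siRNA libraries, and in each of them 3 of the genes called higher are those that passed the filter only through the treated groups.

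**Figure D3:**
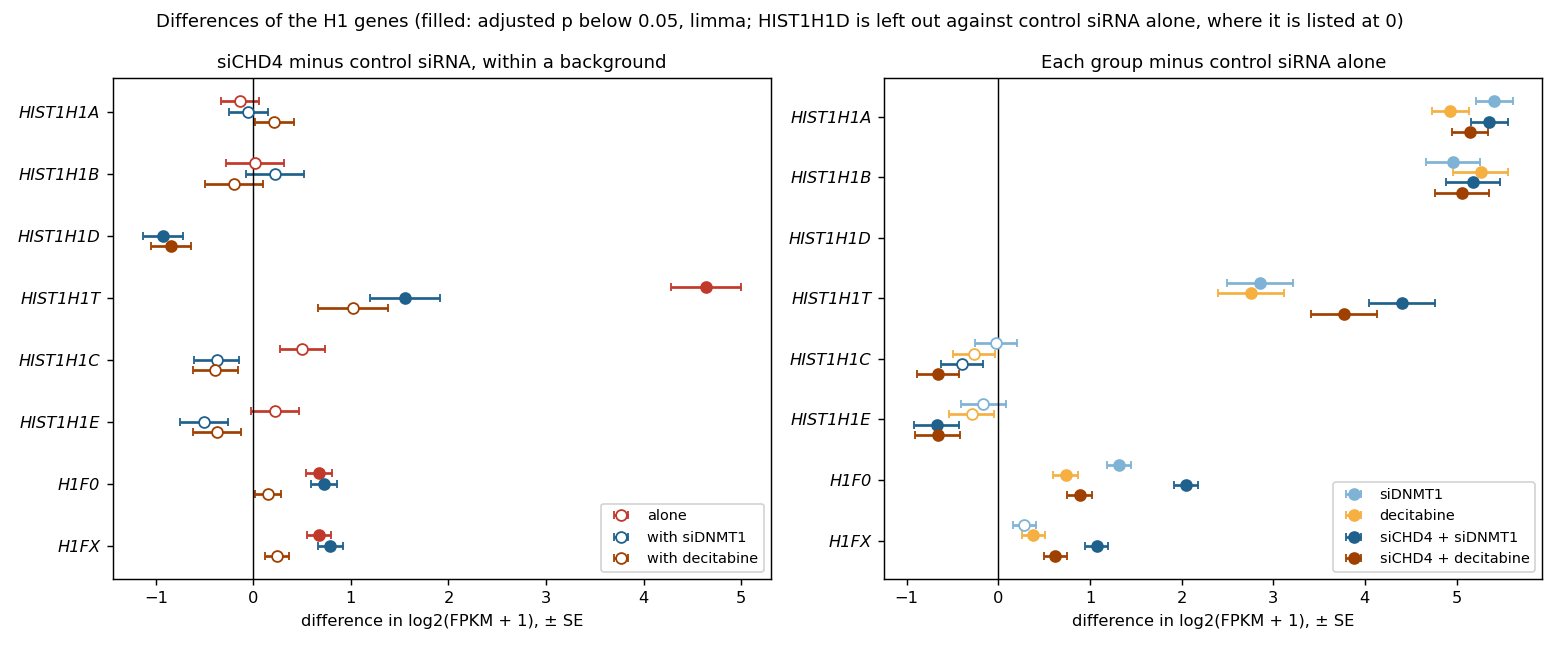
Differences in log2(FPKM + 1) with their SE (x axis) for the 8 H1 genes, siCHD4 against control siRNA within each background at left and each group against control siRNA alone at right, with filled points at an adjusted p below 0.05. HIST1H1D is not drawn in comparisons with control siRNA alone, where it was listed at 0. HIST1H1T has the largest siCHD4 difference (4.64 alone), HIST1H1D differs in the opposite direction (-0.93 and -0.84), and HIST1H1A and HIST1H1B differ by about 5 at right.

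HIST1H1A, HIST1H1B and HIST1H1D, somatic H1 genes of the replication-dependent kind, were near 0 without siDNMT1 or decitabine and were expressed after either. HIST1H1A was at 0.189, 0.606 and 0.188 FPKM with control siRNA and at 0.361, 0.253 and 0 with siCHD4. After siDNMT1 it was at 57.3, 51.8 and 55.7 without and at 54.1, 57.5 and 47.5 with siCHD4. With decitabine it was at 58.3, 31.3 and 32.6 without and at 47.9, 38.9 and 50.7 with siCHD4. All 12 libraries given siDNMT1 or decitabine were above all 6 others, and within each pair the siCHD4 and control siRNA libraries overlapped. The difference from control siRNA was 5.41 (SE 0.20) for siDNMT1 and 4.93 (SE 0.20) for decitabine. HIST1H1A passed the filter only through the groups given siDNMT1 or decitabine and could only come out higher, so no p-value is given here. The siCHD4 differences, from -0.14 to 0.22, were not called in any pair (adjusted p = 0.672, 0.842 and 0.56).

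HIST1H1B was likewise near 0 without siDNMT1 or decitabine and expressed after either. It was at 0, 0.199 and 0.556 FPKM with control siRNA and at 0.237, 0.125 and 0.378 with siCHD4. On the siDNMT1 background the values were 42.6, 29.8 and 40.8 without and 41.5, 44.6 and 44.8 with siCHD4. On the decitabine background the values were 93.3, 33.7 and 31.1 without and 44, 36.1 and 40.5 with siCHD4. The high value of 93.3 belongs to the shallowest library, and again the treated libraries stood apart from the 6 without siDNMT1 or decitabine while each siCHD4 pair overlapped. HIST1H1B was called higher after siDNMT1 (4.96, SE 0.30, adjusted p = 1.7e-08) and decitabine (5.26, SE 0.30, adjusted p = 1.07e-08). The siCHD4 differences were 0.01 alone, 0.22 after siDNMT1 and -0.20 with decitabine, with adjusted p of 0.987, 0.562 and 0.722, and the first and last changed sign under other settings. Without the shallowest library the decitabine difference was 0.30 (adjusted p = 0.394), and the ratio of the means 1.24 in place of 0.762.

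HIST1H1D reached lower levels than these 2 genes and was the only one of the 3 called lower with siCHD4. It was listed at 0 in the 3 control siRNA libraries and at 0, 0.127 and 0.193 FPKM with siCHD4. The siDNMT1 libraries gave 13.6, 15.7 and 15.5 without and 5.74, 9.08 and 7.58 with siCHD4. The decitabine libraries gave 26.6, 13.0 and 13.5 without and 9.41, 9.34 and 8.03 with siCHD4. In both backgrounds every siCHD4 library was below every library of its control. The difference was -0.93 (SE 0.20, adjusted p = 0.00177) after siDNMT1 and -0.84 (SE 0.20, adjusted p = 0.0273) with decitabine, so that the mean FPKM was 0.50 and 0.505 times that of the control group. The decitabine call was lost with a pseudocount of 0.1 (adjusted p = 0.15), with only the 2 compared groups in the fit (0.216) and on leaving out any 1 of the siCHD4 plus decitabine libraries (0.0731 to 0.102). Without the shallowest library, the highest of its control group, the difference was -0.52 (adjusted p = 0.0431) and the ratio 0.674. The siCHD4 effects in the 2 backgrounds differed by -0.09 (SE 0.29, adjusted p = 0.862). HIST1H1D was above control siRNA in every library of the 4 groups given siDNMT1 or decitabine. It passed the filter only through these groups and could only be called higher, so no p-value is given there. No fold is given against a group listed at 0.

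Genes near 0 with control siRNA were often called higher after the same treatments. Of 726 tested genes with a mean under 0.5 FPKM in control siRNA, 42.8% were called higher after siDNMT1 and 45.9% with decitabine, and the 3 H1 genes are among those 726. All of these genes had to pass the filter through another group. By Pearson's r of log2(FPKM + 1) over the 18 libraries, DMRTB1 was most like both HIST1H1A (r = 0.992) and HIST1H1B (r = 0.995). HIST1H1A and HIST1H1B had an r of 0.991 with each other. SAP25 was most like HIST1H1D (r = 0.993). The 18 points share the 6 groups, and within groups r was 0.670 for HIST1H1A with HIST1H1B.

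HIST1H1T, the testis H1 gene, had the largest siCHD4 difference of the 8. It was at 3.14, 2.24 and 4.80 FPKM with control siRNA and at 112.6, 153 and 68.1 with siCHD4. After siDNMT1 it was at 37.3, 25.7 and 28.0 without and at 88.8, 95.0 and 85.4 with siCHD4. With decitabine it was at 57.7, 21.3 and 17.3 without and at 60.4, 50.2 and 62.3 with siCHD4. Each siCHD4 library was above each control library alone and after siDNMT1, while with decitabine the shallowest library, at 57.7, lay among the siCHD4 values. With siCHD4 alone the mean was 32.8 times that of control siRNA (difference 4.64, SE 0.36, adjusted p = 1.02e-06), and after siDNMT1 2.96 times (difference 1.55, SE 0.36, adjusted p = 0.00255). With decitabine the difference of 1.02 (SE 0.36) was not called (adjusted p = 0.133), and it was 1.53 (adjusted p = 0.00485) without control siRNA plus decitabine replicate 0 and 1.93 (adjusted p = 6.76e-06) with the summed FPKM as a covariate, an alternative chosen after seeing the data.

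HIST1H1T also differed from control siRNA without siCHD4. It was called higher after siDNMT1 (difference 2.86, adjusted p = 5.7e-05, 8.94 times the mean) and with decitabine (2.76, adjusted p = 8.76e-05, 9.47 times). Without the shallowest library the decitabine difference was 2.24 (adjusted p = 9.28e-05) and the ratio 5.69. The combinations stood 4.41 (siDNMT1) and 3.77 (decitabine) above control siRNA, at adjusted p of 1.09e-07 and 1.46e-06. The siCHD4 effect was smaller on both backgrounds than alone, by -3.09 after siDNMT1 (SE 0.51, adjusted p = 0.00171) and -3.62 with decitabine (SE 0.51, adjusted p = 0.00172). The schedules of these pairs differ as well. In these tests of the difference, 1.29% and 0.383% of all genes were called lower and 2.83% and 0.773% higher. The level reached with siCHD4 alone (mean 111.3) and with siCHD4 plus siDNMT1 (mean 89.7) overlapped between libraries.

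The 3 siCHD4 libraries ranged widely in HIST1H1T, and so did their summed FPKM (1230410, 1467330 and 919576). By the median log2 ratio of a gene to its mean of the 18 libraries, these libraries stood at 0.0185, 0.0227 and 0.0126. Within groups, HIST1H1T correlated with the summed FPKM of the library at r = 0.937 and with HIST1H1C at r = 0.857 (18 libraries, as deviations from group means), and the part of the summed FPKM in its level was not tested beyond the covariate above. A ratio of 2 genes within a library does not depend on the scaling between libraries. Per 1000 FPKM of HIST1H1C, HIST1H1T stood at 0.943 to 1.46 with control siRNA, 27.4 to 28.1 with siCHD4, 10.1 to 13.6 after siDNMT1 and 8.86 to 20.8 with decitabine. It stood at 43.3 to 45.3 after siCHD4 plus siDNMT1 and at 31.5 to 35.7 with siCHD4 plus decitabine. By this ratio the combination with siDNMT1 was highest, followed by siCHD4 plus decitabine and siCHD4 alone with no overlap between the 3 groups, whereas by FPKM siCHD4 alone ranked first. The ratio also moves with HIST1H1C, whose mean was 4007 with siCHD4 alone, 2037 after siCHD4 plus siDNMT1 and 1707 with siCHD4 plus decitabine.

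**Figure D4:**
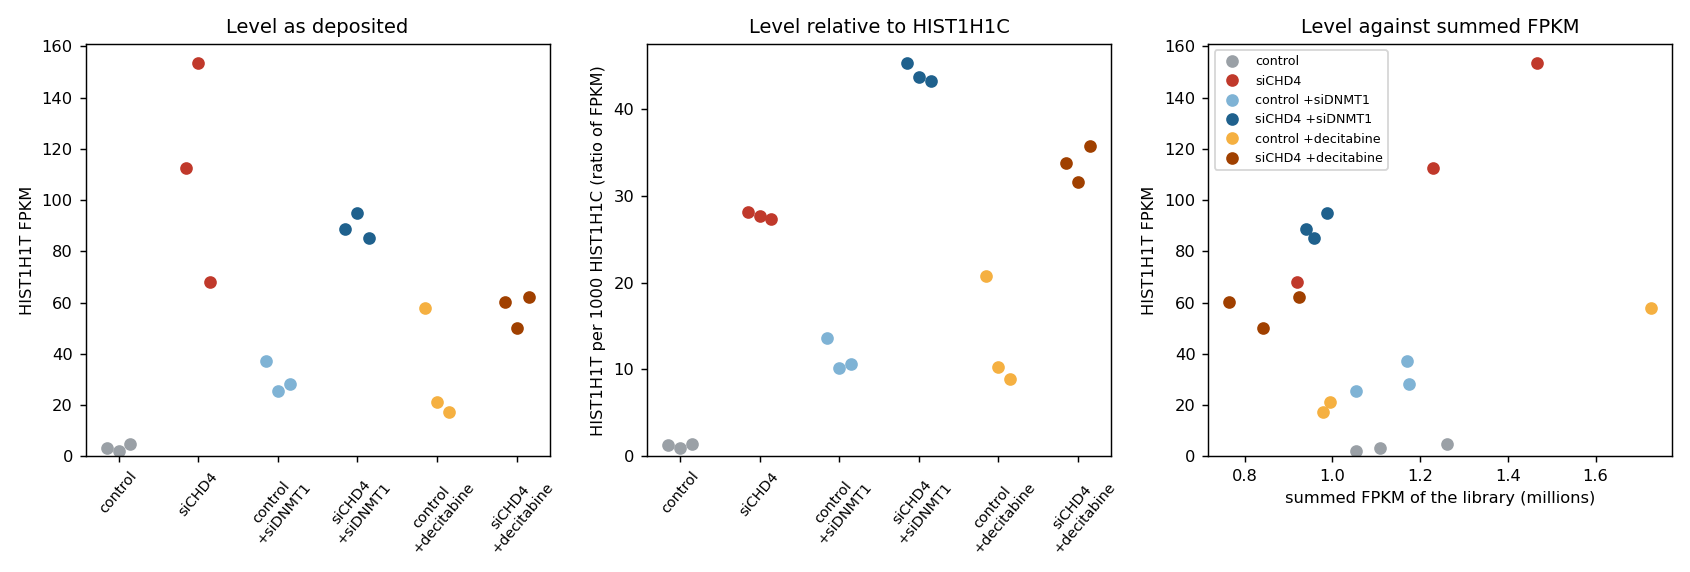
HIST1H1T by library in the 6 groups, as FPKM (left), per 1000 FPKM of HIST1H1C (middle) and as FPKM against the summed FPKM of the library (right). The 3 siCHD4 libraries spread from 68.1 to 153 FPKM at left and lie between 27.4 and 28.1 in the middle.

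HIST1H1T overlaps the annotated span of HIST1H2BC on the same strand, and the part of HIST1H2BC reads in the HIST1H1T level was not tested. HIST1H2BC was at 1725 ± 317 FPKM with control siRNA and 2221 ± 789 with siCHD4 (difference 0.31, SE 0.24, adjusted p = 0.383). After siDNMT1 it was at 1358 ± 37.6 without and 846 ± 92.4 with siCHD4, a call in the direction opposite to HIST1H1T (difference -0.69, SE 0.24, adjusted p = 0.0266). The gene most like HIST1H1T was KCNB2 (r = 0.938 over 18 libraries), a potassium channel gene, followed by FGFR4 (0.915) and CPNE1 (0.915), and no H1 gene was among the 5 nearest.

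HIST1H1C and HIST1H1E, the abundant replication-dependent H1 genes, were not called different between siCHD4 and control siRNA in any of the 3 pairs. HIST1H1C was at 2478, 2372 and 3288 FPKM with control siRNA and at 4003, 5531 and 2487 with siCHD4. On the siDNMT1 background the values were 2741, 2534 and 2649 without and 1962, 2174 and 1974 with siCHD4. On the decitabine background the values were 2776, 2064 and 1948 without and 1788, 1590 and 1744 with siCHD4. The siCHD4 libraries overlapped their control when siCHD4 was given alone and were all below it on the other 2 backgrounds. The siCHD4 differences were 0.50 (SE 0.23, adjusted p = 0.134), -0.38 (SE 0.23, adjusted p = 0.185) and -0.39 (SE 0.23, adjusted p = 0.356), and none was called.

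HIST1H1E followed HIST1H1C closely, with a within-group r of 0.973. It was at 2170, 1987 and 2680 FPKM with control siRNA and at 2967, 3866 and 1596 with siCHD4. The siDNMT1 libraries gave 1985, 1936 and 2136 without and 1479, 1434 and 1339 with siCHD4. The decitabine libraries gave 2340, 1688 and 1598 without and 1566, 1295 and 1443 with siCHD4. As for HIST1H1C, siCHD4 replicate 2 was the lowest of its group and the libraries separated only on the siDNMT1 and decitabine backgrounds. The siCHD4 differences were 0.22 (SE 0.24, adjusted p = 0.566), -0.51 (SE 0.24, adjusted p = 0.0967) and -0.37 (SE 0.24, adjusted p = 0.415). Without siCHD4 replicate 2, whose summed FPKM was the lowest of the 3, both genes were called higher with siCHD4 alone (HIST1H1C 0.81, adjusted p = 0.00778, and HIST1H1E 0.58, adjusted p = 0.0352). HIST1H1C was also called higher there under quantile normalization (0.43, adjusted p = 0.00616).

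Against control siRNA alone, HIST1H1C fell by 0.65 (SE 0.23, adjusted p = 0.0369) and HIST1H1E by 0.66 (SE 0.24, adjusted p = 0.048) with siCHD4 plus decitabine, and HIST1H1E fell by 0.67 (SE 0.24, adjusted p = 0.0272) after siCHD4 plus siDNMT1. None of these 3 calls held under quantile normalization, where the differences were -0.14, -0.11 and -0.09 (adjusted p = 0.28, 0.525 and 0.544), and HIST1H1C was then 0.15 higher, not 0.40 lower, after siCHD4 plus siDNMT1. The HIST1H1C call was also lost on leaving out control siRNA replicate 0 or 2 or any siCHD4 plus decitabine library (adjusted p = 0.059 to 0.145), the HIST1H1E call with decitabine on leaving out any 1 of the 6 libraries (0.0586 to 0.159), and that with siDNMT1 without control siRNA replicate 2 or any siCHD4 plus siDNMT1 library (0.0508 to 0.102). Within groups the 2 genes correlated with the summed FPKM of the library at r = 0.838 (HIST1H1C) and 0.812 (HIST1H1E), against 0.258 for H1F0 and -0.09 for H1FX. The genes most like HIST1H1C were HIST1H2BJ (r = 0.991), HIST1H3G (0.988) and HIST1H4B (0.986), and those most like HIST1H1E were HIST1H2BK (0.973), HIST1H2BJ (0.973) and HIST2H2BE (0.972), all replication-type core histone genes.

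H1F0, the replacement H1 of differentiated cells, was higher than control siRNA in every other group. It was at 47.8, 47.0 and 63.2 FPKM with control siRNA and at 74.8, 78.2 and 99.7 with siCHD4. After siDNMT1 it was at 120.6, 129 and 146 without and at 217, 222 and 216 with siCHD4. With decitabine it was at 102, 77.1 and 84.8 without and at 93.9, 96.0 and 102 with siCHD4. The libraries of siCHD4 and its control did not overlap alone or after siDNMT1 and overlapped with decitabine. The siCHD4 difference was 0.67 alone (SE 0.13, adjusted p = 0.00295, 1.60 times the mean), 0.73 after siDNMT1 (SE 0.13, adjusted p = 0.000448, 1.66 times) and 0.15 with decitabine (SE 0.13, adjusted p = 0.532). In order of the mean, siCHD4 plus siDNMT1 (218 ± 2.93) and control siRNA plus siDNMT1 (132 ± 12.6) stood apart from each other and from the rest. The 2 decitabine groups and siCHD4 alone overlapped, and control siRNA was lowest.

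H1F0 was 4.15 times its control mean after siCHD4 plus siDNMT1 (difference 2.04, adjusted p = 9.36e-09), 2.50 times after siDNMT1 (1.32, adjusted p = 5.8e-06), 1.67 times with decitabine (0.73, adjusted p = 0.00144) and 1.85 times with siCHD4 plus decitabine (0.89, adjusted p = 0.000136). The siCHD4 effect after siDNMT1 minus that alone was 0.06 (SE 0.19, adjusted p = 0.901). The effect after siDNMT1 minus that with decitabine was 0.57 (SE 0.19), which missed the threshold (adjusted p = 0.0652) and passed it without control siRNA plus decitabine replicate 1 (0.66, adjusted p = 0.042).

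H1FX, a divergent H1 expressed outside replication, rose with siCHD4 alone and after siDNMT1. It was at 60.6, 54.2 and 46.7 FPKM with control siRNA and at 71.7, 103.6 and 85.4 with siCHD4. On the siDNMT1 background the values were 60.3, 67.4 and 68.9 without and 113, 120 and 108 with siCHD4. On the decitabine background the values were 65.4, 67.4 and 77.9 without and 84.2, 78.2 and 86.7 with siCHD4. Every siCHD4 library was above every library of its control in all 3 pairs. The difference was called alone (0.67, SE 0.12, adjusted p = 0.00183, 1.61 times the mean) and after siDNMT1 (0.79, SE 0.12, adjusted p = 0.000136, 1.74 times), but not with decitabine (0.24, SE 0.12, adjusted p = 0.291, 1.18 times). The effects on the siDNMT1 and decitabine backgrounds differed by 0.55 (SE 0.17, adjusted p = 0.0612), where 4.16% of all genes were called higher and 4.24% lower. No H1 gene was called there by limma (2, H1F0 and H1FX, were higher at an unadjusted p below 0.05), but both were called with only the 4 compared groups in the fit (H1F0 adjusted p = 0.0248, H1FX 0.0163).

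Against control siRNA alone, H1FX was 2.12 times as high after siCHD4 plus siDNMT1 (1.07, adjusted p = 3.98e-06) and 1.54 times with siCHD4 plus decitabine (0.62, adjusted p = 0.00137). For siDNMT1 without siCHD4 the difference was 0.28 (SE 0.12, adjusted p = 0.165). The decitabine difference of 0.38 (SE 0.12, adjusted p = 0.0439) was lost with no filter on low values (0.0593), with only the 2 compared groups in the fit (0.114) and on leaving out control siRNA plus decitabine replicate 1 or 2 or control siRNA replicate 1 or 2 (0.0597 to 0.163). With only the 2 compared groups in the fit, the siCHD4 calls of H1F0 and H1FX alone were lost as well (adjusted p = 0.0785 and 0.0776). Most like H1F0 were DDX26B and SHC1 (both r = 0.958), and most like H1FX were ASB1 (r = 0.955) and CDX2 (r = 0.943), an intestinal transcription factor gene.

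The make-up of the H1 RNA differed between the groups, given here as a description with no test. HIST1H1C and HIST1H1E together held 97.8% ± 0.257 of the summed H1 FPKM with control siRNA, 95.7% ± 1.35 with siCHD4, 93.3% ± 0.173 after siDNMT1 and 93.3% ± 0.604 with decitabine (SD, n = 3 throughout). They held 86.8% ± 0.107 after siCHD4 plus siDNMT1 and 90.4% ± 0.356 with siCHD4 plus decitabine, the lowest shares, with no overlap with any other group. H1F0 and H1FX together held 2.12% ± 0.270 with control siRNA and 8.35% ± 0.134 after siCHD4 plus siDNMT1. They held 5.20% ± 0.334 with siCHD4 plus decitabine and 2.72% ± 1.34 with siCHD4 alone, where replicate 2 stood at 4.27%.

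The 3 genes near 0 in the control held 0.0114% with control siRNA and 0.00888% with siCHD4, and between 2.15% and 2.73% in the means of the other 4 groups. HIST1H1T held 0.0650% ± 0.0144 with control siRNA, 1.57% ± 0.00918 with siCHD4 alone, 0.606% ± 0.113 after siDNMT1 and 0.678% ± 0.321 with decitabine. Its share was 2.25% ± 0.0275 after siCHD4 plus siDNMT1 and 1.66% ± 0.0974 with siCHD4 plus decitabine. These shares compare FPKM, which is per length, and are not shares of protein. The summed H1 FPKM was 5102 ± 863 with control siRNA, 7100 ± 2701 with siCHD4, 3980 ± 168 after siCHD4 plus siDNMT1 and 3475 ± 256 with siCHD4 plus decitabine. The sum depends on the scaling between libraries, and the summed FPKM of all genes was lower in the combinations too (962173 after siCHD4 plus siDNMT1 and 843174 with siCHD4 plus decitabine, against 1141620 with control siRNA). Of that control sum, RMRP held 154681 and RPPH1 97118. Over genes above 0 in every library, the median log2 ratio of a gene to its mean of the 18 libraries ran from 0.00865 to 0.0325. The part of scaling in the H1 sums was not tested. The shares within a library do not depend on the scaling.

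**Figure D5:**
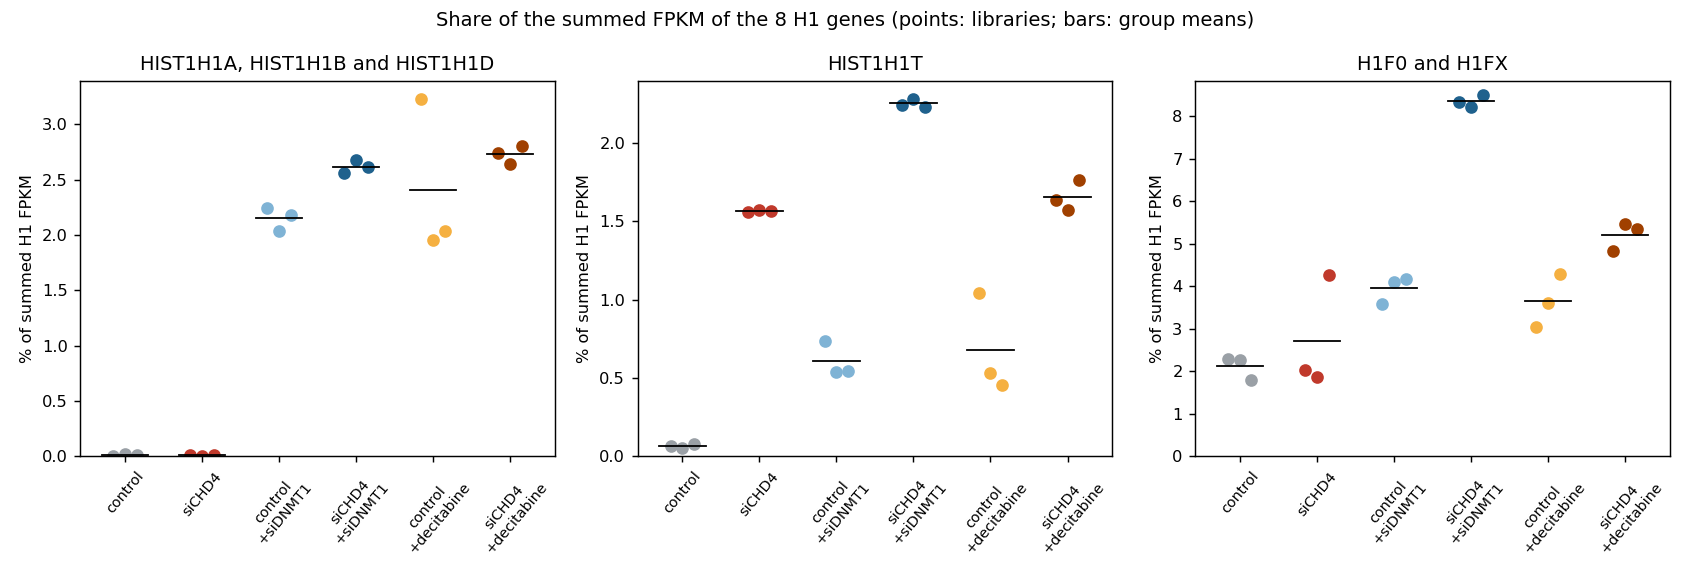
Percent of the summed FPKM of the 8 H1 genes (y axis) held by HIST1H1A, HIST1H1B and HIST1H1D together, by HIST1H1T, and by H1F0 and H1FX together, with a point for each library and a bar at the mean of 3. After siCHD4 plus siDNMT1, H1F0 and H1FX hold 8.35% and HIST1H1T 2.25%, each the highest mean of the 6 groups.

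The genes that lie next to the H1 genes were read by position. On 1 side of HIST1H1B, HIST1H3I (4257 bases away) was listed at 0 with control siRNA and averaged 4.07 FPKM after siDNMT1 and 8.50 with decitabine. On the other side, HIST1H2AL (994 bases away) was already at 219 with control siRNA, and at 181 and 201 after these treatments. Next to HIST1H1D, HIST1H3E was at 50.5 with control siRNA and at 135 and 120, and HIST1H4G was listed at 0 in these groups. HIST1H3C, a neighbour of the abundant HIST1H1C, went from a listed 0 to 45.0 and 48.5. HIST1H3A next to HIST1H1A was already at 302 FPKM with control siRNA and at 339 after siDNMT1. HIST1H4C next to HIST1H1T was at 3673 with control siRNA and 4293 with siCHD4. Levels near 0 in the control were thus found both beside silent and beside abundant H1 genes. Of the 48 tested core histone genes of HIST1, 11 were called higher and none lower with siCHD4 alone (median 0.51, and 0 lower at an unadjusted limma p below 0.05), where 9.58% and 9.71% of all genes were called, among them HIST1H2BG (0.152 to 17.6 FPKM, adjusted p = 9.19e-06), HIST1H2BI (24.9 to 144.7, adjusted p = 1.95e-05) and HIST1H2AE (0.108 to 6.10, adjusted p = 2.2e-05). With siCHD4 after siDNMT1 4 were higher and 6 lower (median -0.38), both smaller shares of the 48 than the 24.8% and 24.6% of all genes, with HIST1H2BB at 16.4 against 65.3 FPKM (adjusted p = 0.00215). On the decitabine background 2 were higher and none lower (median -0.41, with 8 lower at an unadjusted p below 0.05), against 3.26% and 1.31%. After siDNMT1 and after decitabine, 13 of the 48 were called higher than control siRNA and none lower (1 and 2 lower at an unadjusted p below 0.05), where 6.94% and 9.6% of all genes were called higher and 4.4% and 8.63% lower. The medians were -0.06 and -0.18. Genes listed at 0 in both groups without these treatments, such as HIST1H3I, passed the filter only through treated groups and could only be called higher.

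Genes that control or process histone mRNA were read from a list of 16. With siCHD4 alone 1 was called higher and 4 lower (median -0.08, against 9.58% and 9.71% of all genes), among them SLBP, which binds the stem-loop of histone mRNA (137 ± 2.66 to 102 ± 13.7 FPKM, adjusted p = 0.00698), and CCNE2, a cyclin of the entry into replication (39.7 ± 4.14 to 25.8 ± 2.44, adjusted p = 0.01). On the siDNMT1 background 1 was higher and 7 lower (median -0.34, against 24.8% and 24.6% of all genes), with CCNE2 at 32.1 ± 1.93 without and 16.9 ± 0.822 with siCHD4 (adjusted p = 0.000202). On the decitabine background none of the 16 was called (4 were lower at an unadjusted limma p below 0.05), where 3.26% of all genes were called higher and 1.31% lower. The siCHD4 calls of SLBP, CCNE2 and PTMA, described below, were lost with only the compared groups in the fit (adjusted p = 0.0929, 0.0504 and 0.144). Of 26 replication genes, 1 was higher and 8 lower with siCHD4 alone (median -0.18), where 9.58% and 9.71% of all genes were called. On the siDNMT1 background 1 was higher and 23 lower (median -0.77, against 24.8% and 24.6% of all genes), and with decitabine none was called (median -0.25, with 13 lower at an unadjusted p below 0.05, against 3.26% and 1.31%). RRM1, a subunit of ribonucleotide reductase, was at 122 ± 6.30 FPKM after siDNMT1 and at 60.4 ± 3.51 with siCHD4 added (adjusted p = 8.15e-07). HIST1H1D, HIST1H1C and HIST1H1E were also below their controls in all libraries of that pair, and the part of the replication genes in this was not tested.

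Among 18 chaperones of H1 and chromatin proteins that bind near it, 2 were called higher and 1 lower with siCHD4 alone (median -0.10, against 9.58% and 9.71% of all genes). After siDNMT1 the counts were 2 and 7 (median -0.10, against 24.8% and 24.6%), and with decitabine 1 and none (median -0.03, with 2 lower at an unadjusted p below 0.05, against 3.26% and 1.31%). HMGA2, an architectural protein that competes with H1 for DNA, was at 6.40 ± 0.166 FPKM with control siRNA and 13.9 ± 1.40 with siCHD4 (adjusted p = 5.29e-05), and at 7.50 ± 0.579 and 17.6 ± 0.834 after siDNMT1 (adjusted p = 3.72e-06). PTMA, which encodes the H1 chaperone prothymosin alpha, was at 4226 ± 214 with control siRNA and 2705 ± 464 with siCHD4 (adjusted p = 0.00868). Of 7 tested core histone variants made outside replication, none was called with siCHD4 alone or on the decitabine background (0 also at an unadjusted p below 0.05). Of all genes, 9.58% were called higher and 9.71% lower alone, and 3.26% and 1.31% with decitabine. With siCHD4 after siDNMT1 1 of the 7 was higher, H3F3B (214 ± 10.8 to 293 ± 18.1, adjusted p = 0.000307), and 4 were lower, against 24.8% and 24.6% of all genes. H1F0 and H1FX were both higher in that comparison.

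HIST1H1T was compared with 16 other testis histones and sperm chromatin proteins. Of these, 9 were listed at 0 in every library and 4 passed the filter. HIST3H3 was listed at 0 with control siRNA and averaged 0.396 FPKM with siCHD4, 0.537 after siDNMT1 and 7.14 ± 0.684 after siCHD4 plus siDNMT1. BRDT, a testis bromodomain gene, was listed at 0 with control siRNA and averaged 0.0151 with siCHD4 and 1.52 ± 0.239 after siCHD4 plus siDNMT1. These genes were thus near 0 with siCHD4 alone, where HIST1H1T averaged 111.3 and were higher after siCHD4 plus siDNMT1. Both passed the filter only through the groups given siCHD4 with siDNMT1 or decitabine, so no p-value is given for their differences there. The summed FPKM of 4 male germ cell markers was 0 to 0.334 with siCHD4 alone and 1.92 to 2.54 after siCHD4 plus siDNMT1.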

How the data were processed

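RNA from 18 SW48 libraries was sequenced after ribosomal RNA removal, which, unlike poly(A) selection, keeps histone mRNAs without a tail. Per the labels' protocols, total RNA was extracted with 1 of 2 reagents (not named by library) and made into stranded libraries. The authors deposited FPKM values, in 18 columns. TopHat2 2.0.9, hg19 and Cuffdiff 2.1.1 are named in the submitters' processing notes. The annotation, the scaling between libraries, the use of strand and the treatment of reads with more than 1 match are not stated in the sources used. Of 23599 entries, 28 (0.119%) had a date as their name and were dropped.

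FPKM were taken to log2(FPKM + 1). Genes at 1 FPKM or more in 3 or more libraries (12809) were fitted with limma 3.58.1 (R 4.3.3), with 6 group means over all 18 libraries (12 residual degrees of freedom) and empirical Bayes moderation with a trend. P-values are two-sided and adjusted by Benjamini-Hochberg over all tested genes, and below 0.05 a gene is called. An exact permutation test of 3 against 3 libraries cannot go below p = 0.1, so none is quoted. The fit was tested on simulated data. Alternatives were a pseudocount of 0.1, other filters, 2 rescalings, library weights, the compared groups alone, a replicate block, leaving out each library, and the summed FPKM as a covariate (chosen after seeing the data).

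The H1 genes, the lists and the markers were chosen with earlier results of these data known. Named from each list were only genes among the 3 with the smallest p in a siCHD4 comparison, apart from CDX2 and the untested H1 genes. From the likeness measure only genes among the 5 with the highest r were named, and CDX2 is also among these for H1FX. HIST1H2BC and the neighbouring genes were named for their position. Replicate numbers were not taken to pair libraries. Sequences are from RefSeq windows on GRCh38.p14, and positions from GENCODE on GRCh37.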

Additional observations from a re-analysis of the deposited data

Results flagged for a closer look

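The siCHD4 effect on HIST1H1T differed between backgrounds, which also differ in schedule, by a test of the difference itself. The difference was -3.092 (log2(FPKM + 1), limma adjusted p = 0.001708) when the siDNMT1 background was compared with siCHD4 alone, and -3.625 (adjusted p = 0.001717) for decitabine against alone. HIST1H1T was already above control siRNA after siDNMT1 or decitabine. Its mean FPKM was lower in the combinations (89.7 with siDNMT1 and 57.6 with decitabine) than with siCHD4 alone (111.3). Per 1000 FPKM of HIST1H1C it was higher in both combinations than with siCHD4 alone. The mean of HIST1H1C was itself lower there, at 2037 and 1707 against 4007. For HIST1H1D the same test gave -1.072 (adjusted p = 0.04999) between the siDNMT1 background and alone. Without siDNMT1 the gene was listed at or near 0 with and without siCHD4, so no fall could be seen there, and the value adds nothing to the siCHD4 difference of -0.93 after siDNMT1. It was lost with a filter at 5 FPKM (adjusted p = 0.0744), with no filter (0.0532), with the replicate number as a block (0.0831), and on leaving out 10 of the 12 libraries singly (0.0753 to 0.14). The 2 exceptions were siCHD4 replicate 2 and siCHD4 plus siDNMT1 replicate 1.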

How the results depend on the processing

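Calls of the H1 genes depended most on library weights and on single libraries. Library weights gave 5 H1 genes called for siCHD4 alone (3 as reported), 4 for siCHD4 with decitabine (1), 5 for the difference of siDNMT1 from alone (2), 5 for that of decitabine from alone (1) and 4 for that of siDNMT1 from decitabine (0). With only the compared groups in the fit these were 1 for siCHD4 alone, 0 with decitabine and 2 for siDNMT1 from decitabine. A pseudocount of 0.1 gave 0 with decitabine. For siDNMT1 from alone, a filter at 5 FPKM and no filter each gave 1, and for siDNMT1 from decitabine quantile normalization and the summed FPKM as covariate each gave 1. Leaving out 1 library gave 3 to 5 for siCHD4 alone, 0 to 2 with decitabine, 1 to 4 for siDNMT1 from alone, 1 to 3 for decitabine from alone and 0 to 1 for siDNMT1 from decitabine. The cause was not tested.

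The replicate block gave 1 called H1 gene for siDNMT1 from alone, because HIST1H1D was lost (adjusted p = 0.0831), and it ended the calls of HIST1H1C (0.0513) and HIST1H1E (0.0586) with siCHD4 plus decitabine and of H1FX with decitabine (0.0607). Libraries with the same number did not deviate together (residual r from -0.31 to 0.126 over 45 pairs), so the numbers were not taken as pairing.

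Differences that changed sign were of genes not called. With single libraries left out, HIST1H1A ranged from -0.231 to 0.007876 for siCHD4 alone and from -0.1133 to 0.02154 after siDNMT1, where it was 0.141 (quantile) and 0.1187 (covariate). HIST1H1B ranged from -0.1366 to 0.1822 for siCHD4 alone, with -0.06426 (quantile) and -0.0475 (covariate), and from -0.4795 to 0.297 with decitabine, with 0.3102 (weights) and 0.332 (covariate). HIST1H1C ranged from -0.1127 to 0.1228 for siDNMT1 against control siRNA, with 0.08157 (weights) and 0.1029 (quantile). With quantile normalization HIST1H1C was at 0.05162 for siCHD4 after siDNMT1, 0.1356 with decitabine and 0.1545 for siCHD4 plus siDNMT1 against control siRNA, and with the covariate at 0.08842 with decitabine. HIST1H1E ranged from -0.05519 to 0.5827 for siCHD4 alone, and was with decitabine at 0.1427 (quantile) and 0.1396 (covariate).

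Counts over all genes moved by over 1.5 times in 8 comparisons. Library weights called 5904 genes for siCHD4 alone (2471 as reported), 3707 with decitabine (586), 4357 for siDNMT1 against control siRNA (1452), 5621 for decitabine (2335), 7607 for siCHD4 plus decitabine (4467), and 6144 (528), 2413 (148) and 5626 (1076) for the 3 differences of siDNMT1 from alone, decitabine from alone and siDNMT1 from decitabine. The compared groups alone gave 514, 147, 2774 and 929 in the first 4 of these, 42 for decitabine from alone and 1906 for siDNMT1 from decitabine. The covariate gave 3943 for siCHD4 alone, 2611 for siDNMT1, 3517 for decitabine, 929 for siDNMT1 from alone and 2715 for siDNMT1 from decitabine. A filter at 5 FPKM gave 306 with decitabine, 961 for siDNMT1, 219 for siDNMT1 from alone and 83 for decitabine from alone, a pseudocount of 0.1 gave 317 and 693 for siDNMT1 from alone and from decitabine, no filter gave 1093 for the first of these, and the replicate block gave 97 for decitabine from alone and 692 for siDNMT1 from decitabine. Leaving out 1 library moved the counts by over 1.5 times in 7 comparisons. For siCHD4 alone and for decitabine against control siRNA, control siRNA replicate 0 or 1 gave 1484 to 1532 and 1313 to 1519. For siDNMT1 against control siRNA any of its libraries, or control siRNA replicate 0 or 1, gave 890 to 950, and for siCHD4 with decitabine siCHD4 plus decitabine replicate 0 or 1 gave 295 to 301. For siDNMT1 from alone, siCHD4 replicate 2 gave 2557, and either replicate 0 or 1 of control siRNA or of control siRNA plus siDNMT1, replicate 0 or 2 of siCHD4 plus siDNMT1, or siCHD4 replicate 0 gave 320 to 346. For decitabine from alone, siCHD4 replicate 2 gave 303, and control siRNA replicate 0 or 1 or any siCHD4 plus decitabine library gave 71 to 88. For siDNMT1 from decitabine, replicate 0 or 1 of control siRNA plus siDNMT1, or replicate 0 or 2 of siCHD4 plus siDNMT1 or of siCHD4 plus decitabine, gave 308 to 643. The percentages of all genes given beside the H1 counts move with these. Depth is unknown beyond the worth of 1 fragment, so no counting error is given.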
